A study of Bos taurus with 13 samples.

Results

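T cell costimulation and memory genes were examined in the blood of dairy cows. They were 10 genes, *CD27*, *CD28*, *CTLA4*, *ICOS*, *IL7R*, *CCR7*, *PDCD1*, *LAG3*, *CD5* and *CD6*, chosen by name from the 16095 named genes of the count tables, and all 10 were present in the tables of every cow. Whole blood was collected in PAXgene tubes, which fix RNA at sampling, and was sequenced without removal of globin RNA. The 13 lactating cows analysed were of one breed (Italian Red Pied in the labels). The high group held 7 cows, named replicates 1 to 7, and the low group 6 cows, named replicates 8 to 13. The groups were the upper and lower tails of milk cortisol, a readout of stress, so cortisol was observed and not given, and no other treatment was named. The labels give no age and no sequencing batch, and counts of other cows of the study were not analysed here.

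A T cell responds fully when its antigen receptor is engaged together with a costimulatory receptor. *CD28* binds CD80 and CD86 on antigen-presenting cells and delivers this second signal, *CTLA4* competes for the same ligands and restrains the response, and *ICOS* is a relative of both that appears after activation. *CD27* is a receptor of the tumour necrosis factor family that supports memory formation. *IL7R*, the receptor for the survival cytokine interleukin 7, and *CCR7*, the chemokine receptor that guides cells into lymph nodes, mark naive and central memory T cells, and *CD27* is also used to mark such cells. *PDCD1* and *LAG3* are inhibitory receptors of activated and exhausted cells, while *CD5* and *CD6* are scavenger receptor family proteins that set the threshold of receptor signalling. Cattle are known for many circulating gamma delta T cells, which carry the alternative form of the antigen receptor.

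On the UMD3.1 build used by the count tables, *CD28*, *CTLA4* and *ICOS* lay side by side, *CD28* at chromosome 2:92325180-92358568, *CTLA4* at 2:92490401-92495797 and *ICOS* at 2:92564234-92587607. *CD6* (29:37892577-37937146) and *CD5* (29:38005199-38026747) were neighbours on chromosome 29, and *LAG3* (5:104029019-104036158) and *CD27* (5:104302583-104308155) were both on chromosome 5. *CCR7* lay at 19:41428917-41440070, *IL7R* at 20:38335658-38368259 and *PDCD1* at 3:121284545-121294475. Each value is the reads on all exons of a gene, and no exon base of the 10 genes was shared with another named gene.

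Reads counted on named genes numbered between 12198355 and 23709740 in the high group and between 11045599 and 28124575 in the low group. As a T cell reference, the levels of the antigen receptor chains *CD3D*, *CD3E* and *CD3G* were summed. The sum was 1741 ± 279 CPM (counts scaled to the library size, SD, n = 7) in the high group. In the low group it was 1841 ± 407 (SD, n = 6), with a log2 difference of -0.07 (exact two-sided permutation test, p = 0.643). This compares the groups only, so it cannot show whether the genes examined report T cells. One library, high replicate 4, stood apart from the rest. Its score on the first principal component of all genes, which held 29.0% of the variance, was 62.4 against -31.3 to 19.1 in the other cows, and its median correlation with the other libraries was 0.948 against 0.973 to 0.977. Where the value of a gene turned on this cow, it is also given without it. In whole blood, fewer cells of a type and less RNA per cell cannot be told apart.

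The 10 genes spanned a wide range of levels. Levels were compared between genes as CPM per kilobase of exon (RPKM). *CD27* (median 208 RPKM over the 13 cows), *CCR7* (195) and *CD5* (173) led, followed by *CD6* (64.8), *IL7R* (45.0), *CD28* (24.4), *LAG3* (22.4), *PDCD1* (11.9), *ICOS* (9.26) and *CTLA4* (3.05). Several neighbours in this order were not separated within cows. *CD27* was above *CCR7* in 10 of 13 cows, *CCR7* above *CD5* in 9, *CD28* above *LAG3* in 9, and *PDCD1* above *ICOS* in 8. The steps from *CD5* to *CD6*, from *IL7R* to *CD28*, from *LAG3* to *PDCD1* and from *ICOS* to *CTLA4* held in 13 of 13 cows, and that from *CD6* to *IL7R* in 12. Of the naive and central memory markers, *CD27* and *CCR7* were at the top and *IL7R* in the middle, and the activation-linked *ICOS* and *CTLA4* were at the bottom. The exon models of *CD28*, *CTLA4* and *ICOS* were only 660, 666 and 691 bases long against 1453 to 2141 bases for the other 7 genes, and reads on untranslated sequence outside the models were not counted. *CTLA4* had the fewest reads, 12 to 70 per cow, so its values carried the most counting error.

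**Figure D1:**
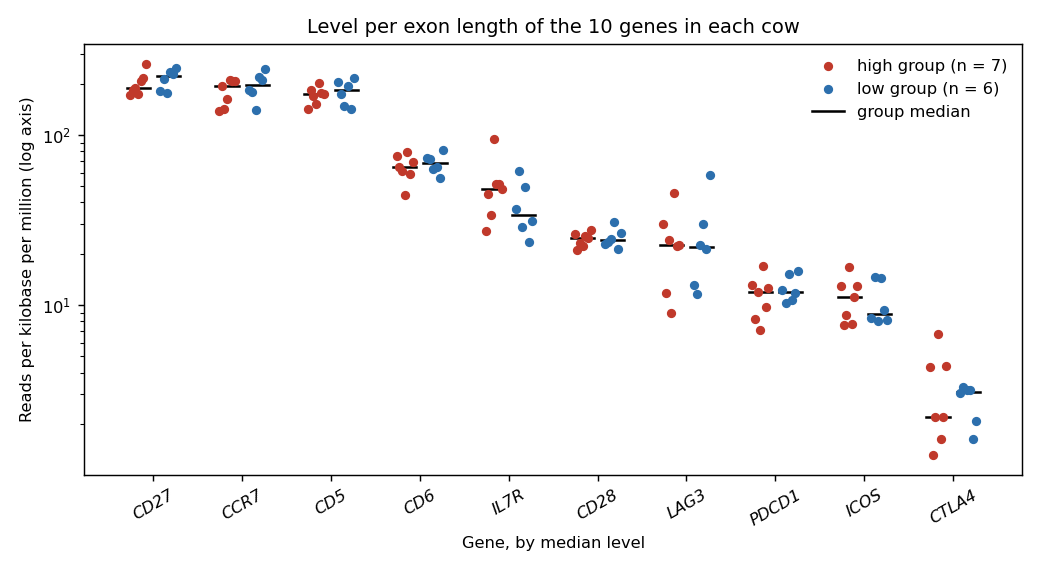
Level of each of the 10 genes in each cow, in CPM per kilobase of exon (RPKM) on a log axis, with high-group cows (n = 7) in red, low-group cows (n = 6) in blue and a bar at each group median. *CD27*, *CCR7* and *CD5* sit highest and *CTLA4* lowest, and the 2 groups overlap for every gene.

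The genes also differed in how much they varied from cow to cow. *CD28*, the founding costimulatory receptor, was the steadiest, with a highest level 1.46 times its lowest and a coefficient of variation of 11.1% over the 13 cows. *CD5* (1.52 times, 13.8%), *CD27* (1.53 times, 14.6%), *CD6* (1.86 times, 15.5%) and *CCR7* (1.78 times, 18.0%) were also below the median spread of all genes. The inhibitory receptor *LAG3* varied most, 6.46 times between lowest and highest (56.5%), and its SD of log2 CPM was at the 95.01 percentile of the 11033 genes that passed the filter on low counts. *CTLA4* (5.14 times, 49.3%) and *IL7R* (4.02 times, 42.2%) followed, with *ICOS* (2.18 times, 29.0%) and *PDCD1* (2.38 times, 24.0%) between. The highest *CTLA4* and *IL7R* levels were those of high replicate 4, and without it the ranges were 3.34 times (37.7%) and 2.61 times (29.6%), while that of *LAG3* was 5.03 times (52.7%). Without the same cow, *CD6* was at 1.46 times (11.9%), close to *CD28* (1.46 times, 11.1%). *PDCD1* was then at 2.05 times (21.0%) and *ICOS* at 1.91 times (26.3%). In all, 5 of the 10 genes had an SD above the median of all genes tested, which was 0.31 on the log2 scale. The median SD of the 10 genes was also 0.31. *CD27*, *CCR7* and *CD5* were high and steady, whereas *CD28* was steady at a lower level. Counting error is a larger part of the spread for genes with few reads such as *CTLA4*.

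No difference between high and low cortisol cows was detected for any of the 10 genes. Of the 10, 0 passed edgeR's quasi-likelihood test with Benjamini-Hochberg adjustment (each adjusted p = 0.998), and 0% of the 11033 genes tested passed it. At an unadjusted p below 0.05, 0 of the 10 passed, against 2.09% of all genes tested (0.934% higher and 1.16% lower in the high group). DESeq2 and limma-voom also called 0 of the 10 at an adjusted or an unadjusted p below 0.05, against 0.00697% and 2.43% of 14346 genes for DESeq2 and 0% and 1.98% of 11033 for limma-voom. The groups overlapped for all 10 genes, and 0.0272% of all genes tested had groups that did not overlap. By an exact two-sided permutation test on log2 CPM, whose smallest possible p is 0.000583, 0 of the 10 had p below 0.05, against 2.05% of all genes tested. Estimates were higher in the high group for 3 of the 10 genes and lower for 7, with a median log2 fold change (high minus low) of -0.07, beside 5885 higher and 5148 lower and a median of 0.01 over all genes tested.

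Among the costimulatory receptors, *CD28* ranged from 13.9 to 18.2 CPM with a median of 16.4 in the high group, and from 14.1 to 20.3 with a median of 15.8 in the low group. The estimate was -0.04 on the log2 scale (95% interval -0.30 to 0.22), and it was 0.03 without low replicate 11, the cow with the highest level. *CD27* was between 301 and 461 CPM (median 330) in the high group and between 308 and 433 (median 387) in the low group. All but 1 of the 7 high cows lay under the low median, yet the ranges overlapped and the log2 fold change was -0.09 (-0.34 to 0.17). *ICOS* was between 5.27 and 11.5 CPM (median 7.64) in the high group and between 5.59 and 10.1 (median 6.07) in the low group, with a log2 fold change of 0.08 (-0.41 to 0.57). High replicate 4 had the highest *ICOS* level, and the estimate became -0.04 when it was left out. The intervals of *CD28* and *CD27* were narrow, and that of *ICOS* was wider.

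Among the inhibitory receptors, *CTLA4* ranged from 0.87 to 4.47 CPM (median 1.46) in the high group and from 1.08 to 2.18 (median 2.06) in the low group. The high group held both the lowest cow (replicate 2) and the highest (replicate 4). Its log2 fold change was 0.24 (-0.52 to 1.01), and -0.03 without high replicate 4. *PDCD1* was between 11.9 and 28.5 CPM (median 19.8) in the high group and between 17.1 and 26.5 (median 20.0) in the low group, with a log2 fold change of -0.14 (-0.54 to 0.25), which was -0.06 without high replicate 4. *LAG3* was between 16.6 and 84.1 CPM (median 41.5) in the high group and between 21.3 and 107 (median 40.6) in the low group. Each group thus held cows with low and with high *LAG3*, and the log2 fold change was -0.14 (-0.95 to 0.66). It was 0.26 without low replicate 13, the cow with the highest level, and -0.00031 without high replicate 4, the cow with the lowest. The intervals of *CTLA4* and *LAG3* were the widest of the 10 genes, so the 13 cows bound these 2 only loosely.

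*IL7R* had the largest estimate of the 10 genes. Its level was between 39.3 and 137 CPM (median 69.7) in the high group and between 34.2 and 89.3 (median 49.3) in the low group. Of the 7 high cows, 5 were over the low median. The log2 fold change was 0.38 (SE 0.26, 95% interval -0.18 to 0.94, unadjusted p = 0.167 by edgeR), against an exact permutation p of 0.260. It was 0.15 without high replicate 4, and 0.56 (unadjusted p = 0.0462 by edgeR) without low replicate 9, the low cow with the highest level. *CCR7* was between 294 and 448 CPM (median 417) in the high group and between 300.2 and 523 (median 421) in the low group, with a log2 fold change of -0.12 (-0.42 to 0.18). The other lymphoid homing and memory marker thus had an estimate of the opposite sign, and neither differed beyond the spread between cows.

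*CD5* was between 278 and 391 CPM (median 338) in the high group and between 276 and 419 (median 356) in the low group. *CD6* was between 93.4 and 167 CPM (median 137) and between 119 and 174 (median 145) in the same order. The log2 fold changes were -0.06 (-0.31 to 0.18) for *CD5* and -0.08 (-0.35 to 0.19) for *CD6*. The lowest *CD6* level was that of high replicate 4, and the *CD6* estimate became -0.01 when it was left out.

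Because the share of T cells in blood can differ between cows, each gene was also set against the summed CPM of *CD3D*, *CD3E* and *CD3G*. Expressed this way, *CCR7* was at 22.5% of the summed CD3 level in the median cow, *CD27* at 20.3%, *CD5* at 18.1%, *CD6* at 7.68%, *IL7R* at 3.45%, *LAG3* at 2.51%, *PDCD1* at 1.06%, *CD28* at 0.917%, *ICOS* at 0.408% and *CTLA4* at 0.101%. These percentages are not scaled to exon length. Their order therefore differs from that by RPKM, with *CCR7* above *CD27* and *CD28* below *LAG3* and *PDCD1*. Between groups, 0 of the 10 ratios had an exact permutation p below 0.05, against 1.01% of 10934 genes treated the same way, and the groups overlapped for each, as they did for all but 0.0183% of those genes. *IL7R* again had the largest difference, 4.37% ± 2.56 (SD, n = 7) of the CD3 level in the high group and 3.13% ± 1.30 (SD, n = 6) in the low group (log2 difference 0.43, exact p = 0.236). High replicate 4 reached 10.0%, and the log2 difference without it was 0.21. Division by the CD3 level narrowed the spread of *LAG3*, whose SD went from 0.78 to 0.59 on the log2 scale, and of *PDCD1*, from 0.36 to 0.29. The spreads of *CCR7* (0.27 to 0.22), *CD27* (0.21 to 0.18), *CD6* (0.24 to 0.22) and *CD5* (0.200 to 0.197) also narrowed. Division widened that of *CTLA4* (0.63 to 0.79), *ICOS* (0.40 to 0.52), *IL7R* (0.55 to 0.63) and *CD28* (0.16 to 0.18). These changes of spread are descriptions and were not tested.

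**Figure D2:**
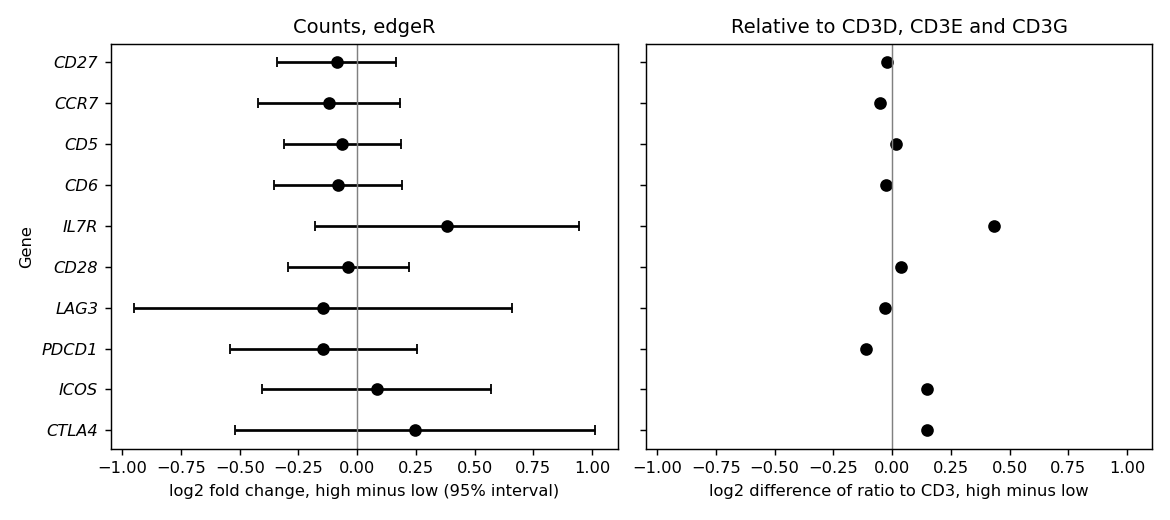
Left, log2 fold change (high minus low) of each gene from the edgeR fit with its 95% interval; right, the log2 difference of its ratio to the summed CPM of *CD3D*, *CD3E* and *CD3G*, without error bars. Every interval on the left crosses 0, and *IL7R* has the largest value in both panels (0.38 and 0.43).

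The differences that were present lay between single cows. High replicate 4 had the highest level of the 13 cows for *CTLA4*, *ICOS* and *IL7R* and the lowest for *PDCD1*, *LAG3* and *CD6*. Its *CTLA4* level of 4.47 CPM compared with 2.90 in the next cow, and its *IL7R* level of 137 CPM with 89.3. This is the library that stood apart over all genes, and its part in these levels was not tested. Low replicate 13 was highest for *CCR7*, *LAG3*, *CD5* and *CD6*, and high replicate 2 was lowest for *CD28*, *CTLA4* and *ICOS*. High replicate 7 and low replicate 11 were above the median of the cows for 8 of the 10 genes, whereas high replicates 2 and 3 were above it for 1.

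**Figure D3:**
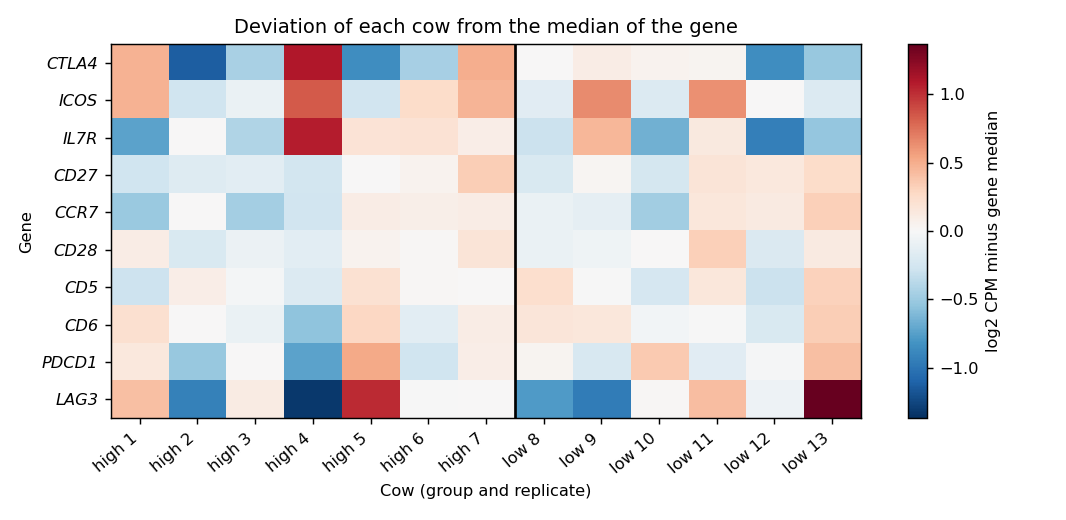
Deviation of log2 CPM of each gene (rows) in each cow (columns, high group left of the line, low group right) from the median of the gene over the 13 cows. High replicate 4 is red for *CTLA4*, *ICOS* and *IL7R* and blue for *PDCD1*, *LAG3* and *CD6*, and low replicate 13 is darkest for *LAG3* (107 CPM).

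Across the 13 cows the genes did not vary as one group. The median Pearson correlation of log2 CPM over the 45 pairs was 0.25, beside -0.002 over all pairs of genes tested, with 29 pairs positive and 16 negative. It was 0.13 without low replicate 13. A correlation of 0.55 or more was reached by 9 of the 45 pairs, 20% against 10.7% of all gene pairs, and one of -0.55 or less by 1 pair, against 10.4%. At an unadjusted permutation p below 0.05 there were 10 of the 45 pairs. After Benjamini-Hochberg adjustment over the 45 pairs, 3 pairs passed, and the sign of each was positive. The share of all gene pairs passing these tests was not computed, so the calls do not set these pairs apart from other gene pairs.

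*CD27* and *CCR7*, both markers of naive and central memory cells, varied together (r = 0.80, permutation p = 0.00124, adjusted p = 0.0279; Spearman rho = 0.84, permutation p = 0.00089, adjusted p = 0.0400). The correlation was 0.81 without the 2 cows farthest from the median of *CD27*, 0.80 without high replicate 4, 0.71 within the high group and 0.90 within the low group. Of the 3 pairs, its correlation moved least over these subsets. *IL7R*, a marker of the same cells, did not follow over the 13 cows, with r of -0.01 with *CD27* and 0.13 with *CCR7*. Without high replicate 4, the cow with the highest *IL7R* level, these were 0.28 and 0.34.

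The inhibitory receptors *PDCD1* and *LAG3* were correlated at r = 0.80 (permutation p = 0.00113, adjusted p = 0.0279; rho = 0.76, permutation p = 0.0035, adjusted p = 0.0561). The correlation was 0.66 without the 2 farthest cows, 0.73 without high replicate 4, 0.97 within the high group and 0.62 within the low group. The inhibitory receptor *CTLA4* had r of -0.25 with *PDCD1* and -0.33 with *LAG3*, which were 0.15 and -0.06 without high replicate 4. *CTLA4* and *ICOS*, neighbours on chromosome 2 and both linked to activation, were correlated at r = 0.77 (permutation p = 0.0020, adjusted p = 0.0300; rho = 0.76, permutation p = 0.00374, adjusted p = 0.0561). Here the correlation was 0.63 without the 2 farthest cows, 0.68 without high replicate 4, 0.96 within the high group and 0.41 within the low group. *CD28*, on the same stretch of chromosome 2, had r of 0.26 with *CTLA4* and 0.30 with *ICOS*. Without high replicate 4 these were 0.56 and 0.54. The rank correlations of *PDCD1* with *LAG3* and of *CTLA4* with *ICOS* missed the threshold after adjustment.

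Leaving out single cows ended these calls. With 12 cows, 0 pairs passed the adjustment without high replicate 4, without high replicate 5 or without low replicate 13, and 5 passed without low replicate 12. The most negative pair was *IL7R* and *PDCD1* (r = -0.60, permutation adjusted p = 0.186), which was -0.37 without high replicate 4. As ratios to the CD3 level, 5 pairs passed, although ratios with a common denominator share its variation.

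**Figure D4:**
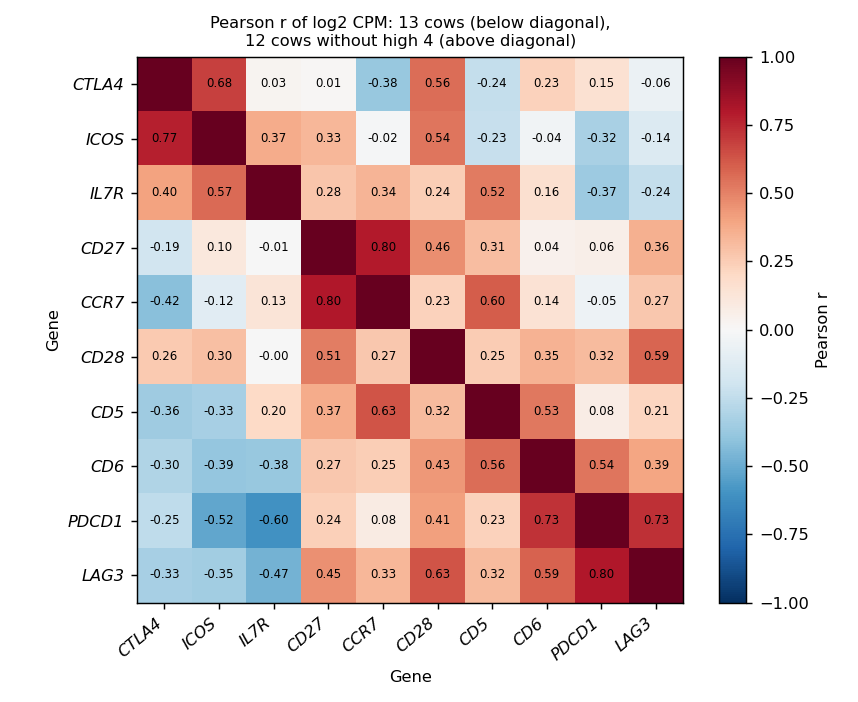
Pearson correlation of log2 CPM for each pair of genes, over the 13 cows below the diagonal and over the 12 cows without high replicate 4 above it. The reddest off-diagonal cells are *CD27* with *CCR7* and *PDCD1* with *LAG3* (0.80 each) and *CTLA4* with *ICOS* (0.77), and *IL7R* with *PDCD1* is the bluest (-0.60).

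The genes were then set against lists of blood cell markers, each summarised as the mean of centred log2 CPM, in 110 relations chosen after the data had been seen. Of the 110, 1 passed the adjustment, that of *LAG3* with the gamma delta T cell list, made of the receptor constant chain *TRDC*, the transcription factor *SOX13* and the kinase *BLK* (r = 0.85, permutation p = 0.00016, adjusted p = 0.0176; rho = 0.81, permutation p = 0.00128, adjusted p = 0.0844). It was 0.75 without the 2 farthest cows, 0.83 without high replicate 4, 0.78 within the high group and 0.96 within the low group. Each of the 3 genes showed it, *TRDC* with r = 0.81, *SOX13* with 0.82 and *BLK*, which B cells also express, with 0.88. The summed level of the list was between 324 and 1196 CPM in the high group and between 403 and 1564 in the low group, and 0 of its 3 genes passed between groups. Low replicate 13 and high replicate 5 were the cows with the highest *LAG3*, and low replicate 13 was also highest for the list.

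Correlations with the T cell receptor complex list (*CD3D*, *CD3E*, *CD3G* and the signalling partners *CD247*, *LCK* and *ZAP70*) sorted the genes further. *CD28* (r = 0.77, permutation adjusted p = 0.0711), *CD27* (0.75, 0.117), *LAG3* (0.67, 0.145) and *CCR7* (0.56) had r of 0.55 or more, 4 of the 10 genes against 3.00% of 11027 genes, although none passed after adjustment over the 110 relations. With the gamma delta list, *LAG3*, *CD27* (0.68) and *CD28* (0.63) reached 0.55, 3 of the 10 genes against 5.04% of 11030. *CTLA4* (-0.01), *ICOS* (0.14) and *IL7R* (0.13) had the values nearest 0 with the T cell receptor complex list. Without high replicate 4 they were 0.12, 0.27 and 0.32. *PDCD1* had its most negative values with the neutrophil list (r = -0.69) and the monocyte list (r = -0.67), each with a permutation adjusted p of 0.145. This was not particular to *PDCD1*. In the same order *LAG3* had -0.65 and -0.59, *CD28* -0.57 and -0.50, *CD6* -0.57 and -0.36, and *CD27* -0.42 and -0.66. *IL7R* (0.17 and 0.30) was positive with both, and *ICOS* (-0.001 and 0.06) was near 0. Of the 110 relations, 20 had an unadjusted permutation p below 0.05.

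**Figure D5:**
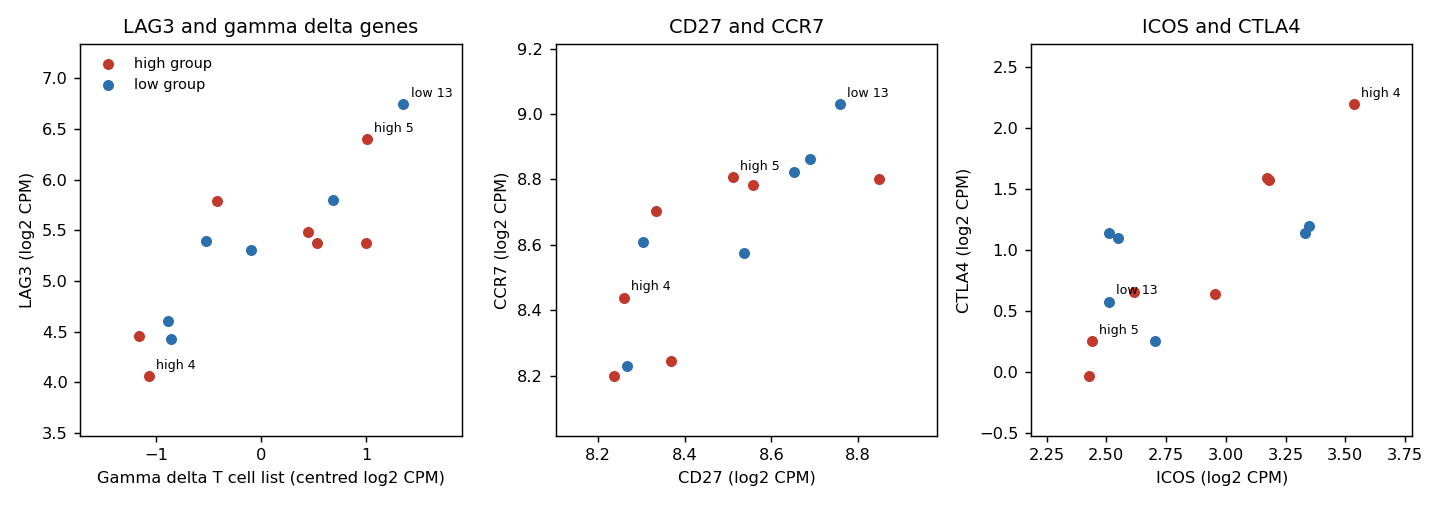
Log2 CPM in each cow (high group red, low group blue) of *LAG3* against the mean centred log2 CPM of the gamma delta T cell list, of *CCR7* against *CD27*, and of *CTLA4* against *ICOS*. *LAG3* follows the gamma delta list in both groups (r = 0.85), and high replicate 4 is at the top right for *CTLA4* and *ICOS* and at the low end for *LAG3*.

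Several of the genes followed the axis on which high replicate 4 stood apart. The correlation with the first principal component of all genes, in 10 relations also chosen after the data had been seen, was 0.84 for *ICOS* (permutation p = 0.00009, adjusted p = 0.0009; rho = 0.87, permutation adjusted p = 0.0026), and 0.81 without high replicate 4. It was -0.78 for *PDCD1* (permutation adjusted p = 0.00775, -0.63 without that cow). *CD6* (-0.75), *CTLA4* (0.69) and *IL7R* (0.69) each had a permutation adjusted p of 0.0202 and *LAG3* (-0.62) one of 0.0359. Without high replicate 4 these correlations were smaller with the same sign, -0.45 for *CD6*, 0.45 for *CTLA4*, 0.40 for *IL7R* and -0.45 for *LAG3*. By rank none of these 4 genes passed, with a permutation adjusted p of 0.0899 for *CD6*, *CTLA4* and *IL7R* and 0.122 for *LAG3*, whereas *PDCD1* did (0.0304). *CD5* (-0.41), *CCR7* (-0.30), *CD27* (-0.22) and *CD28* (-0.12) did not pass. The component holds these genes among all others and 29.0% of the variance of all genes. The share of all genes passing the same test was not computed, so these calls do not set the 10 genes apart from other genes. The part of the component in the pairs above was not tested.

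Partners of the receptors were then read. Of 14 ligands and partner chains, 13 were in the tables, 10 passed the filter, and 0 passed the edgeR test (5 estimates higher, 5 lower, median log2 fold change 0.03). The ligands of *CD28* and *CTLA4*, *CD86* and *CD80*, had like levels per length, with medians of 28.2 and 26.4 RPKM (81.3 and 23.5 CPM). *CD70*, the ligand of *CD27*, had a median of 6.01 CPM, and the *PDCD1* ligands *CD274* and *PDCD1LG2* had 12.8 and 9.82 CPM. *CD274* had the largest estimate, 12.5 ± 4.67 CPM (SD, n = 7) in high and 19.4 ± 14.1 (SD, n = 6) in low cows (log2 fold change -0.64, SE 0.35, unadjusted p = 0.0862 by edgeR, exact permutation p = 0.241). Low replicate 10, at 46.7 CPM, carried this estimate, which was -0.17 without it (unadjusted p = 0.542 by edgeR). *IL2RG*, the chain shared by *IL7R* with other cytokine receptors, stood at 1247 CPM and *IL7* itself at 1.83 CPM. *LGALS3*, one of several reported *LAG3* ligands, had 336 CPM, the *CD6* ligand *ALCAM* 4.96 CPM and *CD72*, reported as a *CD5* ligand, 79.3 CPM. The *CCR7* ligands *CCL19* and *CCL21* and *FGL1*, another reported *LAG3* ligand, were below the filter, and *CCL21* had 0 counts in 10 of 13 cows. Other ligands of *LAG3* were not on the list.

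The other lists of the pathway gave a like result. Of 16 other costimulatory and inhibitory receptors, 12 were tested and 0 passed (6 estimates higher, 6 lower, median -0.01), with the largest estimate in *BTLA*, an inhibitory receptor of lymphocytes (log2 fold change 0.41, SE 0.25, unadjusted p = 0.120 by edgeR). Of 21 genes of costimulation signalling, 0 passed (8 higher, 13 lower, median -0.02), and *STAT5B*, which carries the interleukin 7 signal, had the smallest p (log2 fold change -0.20, SE 0.09, unadjusted p = 0.0533 by edgeR). Of 17 tested transcription factors and homing genes of naive and memory T cells, 0 passed (9 higher, 8 lower, median 0.01). At an unadjusted p below 0.05 there was 1 of the 60 tested genes of these 4 lists (1.67%, against 2.09% of all genes tested), *PRDM1*, which drives terminal differentiation of effector T cells and plasma cells. Its level was 41.3 ± 6.26 CPM (SD, n = 7) in high and 49.3 ± 6.66 (SD, n = 6) in low cows (log2 fold change -0.26, SE 0.12, unadjusted p = 0.0494, adjusted p = 0.998 by edgeR). The naive T cell factors *TCF7* (log2 fold change -0.09, SE 0.13) and *LEF1* (-0.12, SE 0.15) and the regulatory T cell factor *FOXP3* (-0.22, SE 0.17) had unadjusted p of 0.492, 0.443 and 0.209.

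Markers of other blood cells were read beside these genes. No gene of any cell list passed after adjustment, and the following had an unadjusted p below 0.05 by edgeR, as did 0.934% of all genes tested with higher and 1.16% with lower estimates. In the erythroid list, 5 of 6 tested genes (*HBB*, *HBM*, *HBG*, *ALAS2* and *CA2*) had higher estimates, and the summed level of the list was between 388 and 8010 CPM in the high group and between 143 and 580 in the low group. Lower estimates were found for 3 of 13 interferon response genes (*Mx1*, *OAS1X* and *IFI44*), for the neutrophil genes *CSF3R* and *S100A9*, 2 of 7, for the monocyte gene *CD68*, 1 of 7, and for the platelet gene *GP1BB*, 1 of 5, and a higher one for the B cell gene *CR2*, 1 of 8. In the T cell receptor complex, coreceptor, gamma delta, cytotoxic and NK cell, and eosinophil lists there were 0. At any p, estimates were lower for all 13 interferon response genes and all 5 platelet genes. They were higher for all 8 B cell, 6 cytotoxic and NK cell, 3 eosinophil and 6 erythroid genes tested. The T cell receptor complex, coreceptor, gamma delta, neutrophil and monocyte lists were mixed in direction. Estimates were lower for 4 and higher for 3 of the 7 neutrophil genes, and lower for 2 and higher for 5 of the 7 monocyte genes. With the haemoglobin share, the CD3 level or the neutrophil level of each cow as a covariate, 0 of the 10 genes passed the adjusted edgeR test, but estimates moved. With the haemoglobin share, the log2 fold change of *CD27* was -0.28, of *CD28* -0.12, of *CCR7* -0.22, of *PDCD1* -0.23, of *CTLA4* 0.13, of *IL7R* 0.14 and of *ICOS* -0.05. With the CD3 level that of *LAG3* was 0.01. With the neutrophil level *LAG3* had -0.44, *CD27* -0.15, *CD28* -0.09 and *CD6* -0.17, and *PDCD1* had a log2 fold change of -0.32 (unadjusted p = 0.0388 by edgeR).

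The genes whose levels were most like each of the 10 were found by Pearson correlation of log2 CPM over the 13 cows among all genes tested, with the other members left out. They are the extremes of 11033 correlations and are given as a description. For *CD27* they were *HADHB* (0.88), *MZB1* (0.86) and *CDCA7* (0.85), for *CCR7* *RBFOX3* (0.89), *FASN* (0.86) and *SLC4A11* (0.85), and for *CD28* *NAALADL1* (0.81), *ESPN* (0.78) and *FBXO24* (0.77). *ICOS* had the closest of all, *CRLF3* (0.96), *XPOT* (0.95) and *TRAM1* (0.95), and *CTLA4* was most like *SLC35E3* (0.94), *C2orf69* (0.92) and *ZNF664* (0.88). *IL7R* was most like *GATAD1* (0.91), *PDIK1L* (0.90) and *PLEKHM3* (0.90), and *PDCD1* most like *TOM1L2* (0.94), *PYM1* (0.92) and *RIPK3* (0.91). For *LAG3* they were *BLK* (0.88), *RAD51D* (0.88) and *EBF4* (0.88), for *CD5* *TEF* (0.89) and *PLA2G15* (0.88), and for *CD6* *GFOD2* (0.92), *EEF2* (0.90) and *TOR2A* (0.89). The mean of the 10 genes was most like *GJA10* (0.84), *BORA* (0.79), *TRAV29DV5* (0.79), a T cell receptor variable segment, *ANKRD10* (0.79) and *C8H9orf152* (0.78), and most unlike *IWS1* (-0.82), *EYA3* (-0.79), *ELOVL4* (-0.78), *IL17C* (-0.78) and *TMEM109* (-0.77).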

How the data were processed

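The authors deposited counts per gene name for whole-blood RNA of 13 cows, as whole numbers without normalization. The file headers name featureCounts 1.4.6-p3 and Ensembl release 88 gene models for UMD3.1, whereas the submitters' processing notes list STAR 2.7.3, Subread 1.6.5 and ARS-UCD1.2. A directory in the header paths carries the word goat. The unnamed entry (13.9% to 16.7% of counts) was left out. CPM used TMM factors, log2 CPM a prior count of 2, and RPKM the exon length in the tables. Groups from the labels were compared in R 4.3.3 with edgeR 4.0.16 (quasi-likelihood, robust, no covariate, minimum count 10, minimum total 15), whose code was tested on simulated data. The alternatives included DESeq2 1.42.0 and limma 3.58.1. Permutation tests used all 1716 splits of the cows, or 100000 resamples for correlations. The genes and lists were chosen with earlier results of these data known. Genes named outside the 10 were those of the lists at an unadjusted p below 0.05, the ligands, and the 3 closest genes by correlation (5 at each end for the mean of the 10), of which 1 for *CD5* is not reported here. *BTLA*, *STAT5B*, *TCF7*, *LEF1* and *FOXP3* were named after their values were seen. In all 13 tables the header path holds another animal number than the table name, so the group of each library rests on the labels alone. Protein and promoter sequences were not analysed here.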

Additional observations from a re-analysis of the deposited data

Results flagged for a closer look

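The *IL7R* level of high replicate 4, 137 CPM, lay far above those of the other 6 cows of its group, of which the next was 74.97 CPM and the lowest 39.3 CPM. Its gap to the next cow was 0.636 of the range of the group, above Dixon's 95% critical value for 7 samples. Across the 10 genes in 2 groups, 20 groups were examined, and about 1 such value would be expected by chance. The same library stood apart over all genes, and whether this accounts for its *IL7R* level was not tested.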

How the results depend on the processing

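Of 741 values recomputed under other settings, 673 kept their direction and their side of the threshold or stayed within the spread, 44 changed sign and 24 moved. The count of the 10 genes passing the adjusted test was 0 in all 25 alternative fits. At an unadjusted p below 0.05 it was 1 with the neutrophil covariate, and 0 to 1 with single cows left out. For the 4 pathway lists that count was 2 with DESeq2 (either form), limma-voom, no filter, the CD3 covariate or the neutrophil covariate, 0 with upper-quartile factors, 10 counts in every sample or the haemoglobin covariate, and 0 to 4 with single cows left out. Pairs passing numbered 5 as ratios to CD3 and 0 to 5 with single cows left out, and 0 to 2 genes then changed place in the order of levels (2 without low replicate 9). Sign changed for *ICOS* with the haemoglobin covariate (-0.051) and *LAG3* with the CD3 covariate (0.010), and for ratios to *CD3E* alone in *CD27* (0.015), *LAG3* (0.0040) and *CD6* (0.011) and to 6 receptor complex genes in *CD5* (-0.0076). With single cows left out, log2 fold changes ranged from -0.078 to 0.033 for *CD28*, -0.027 to 0.38 for *CTLA4*, -0.042 to 0.20 for *ICOS* and -0.39 to 0.26 for *LAG3*. Differences in the exact test ranged from -0.075 to 0.031 for *CD28*, -0.12 to 0.26 for *CTLA4*, -0.028 to 0.18 for *ICOS*, -0.29 to 0.17 for *LAG3* and -0.12 to 0.0021 for *CD5*. Ratios to CD3 ranged from -0.076 to 0.045 for *CD27*, -0.042 to 0.084 for *CD28*, -0.12 to 0.33 for *CTLA4*, -0.016 to 0.28 for *ICOS*, -0.12 to 0.017 for *CCR7*, -0.20 to 0.14 for *LAG3*, -0.029 to 0.11 for *CD5* and -0.088 to 0.049 for *CD6*. Among 3 further values chosen after seeing the data, the highest over the lowest level without high replicate 4 was 3.34 for *CTLA4* and 2.61 for *IL7R*, and the *CD274* log2 fold change without low replicate 10 was -0.17. None of the differences between groups passed its test with all cows, and the cause of the changes was not tested. No paired analysis was made because the groups were different cows and the labels name no pairs. Depth limited mainly *CTLA4*, the gene with the fewest reads.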
